A study of Homo sapiens with 15 samples.

Results

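The comparison described here sets senescent against growing fibroblasts in the control condition of the study. It uses 6 of the 15 libraries of the series, the 3 labelled senescent control and the 3 labelled growing control, and covers the 15994 of 57736 Ensembl genes in the deposited count table that had enough counts to be tested. The cells were IMR90, an established human line grown from fetal lung, and total RNA was sequenced. The other 9 libraries were senescent cells with a short hairpin against TXNRD1, with the vehicle DMSO or with the TXNRD1 inhibitor TRi-1. They entered the model to share its estimate of spread, and they also bore on the count filter and the scaling. With the 2 groups alone, 15017 genes had enough counts to be tested. The labels name neither the stimulus that made the cells senescent, nor the time since, nor the control construct that the cells of either group may have carried. Nor do they say if a group's 3 replicates came from separate cultures, so p-values measure the spread between these samples, which may be technical.

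Cellular senescence is a lasting exit from the cell cycle that follows telomere loss, DNA damage or the signal of an activated oncogene. The arrest is held by inhibitors of cyclin-dependent kinases, which keep the retinoblastoma proteins active and so keep E2F and DREAM target genes silent. Senescent fibroblasts stay metabolically active and secrete cytokines, chemokines, growth factors and proteases, a mixture known as the senescence-associated secretory phenotype, in which interleukin-1 and the transcription factors NF-kB and C/EBP beta are known to act. In lung, such cells are known from fibrosis and ageing.

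Library totals ran from 20586451 to 25484005 counts. The growing libraries had counts for 21072 to 21498 genes and the senescent libraries for 22148 to 22718. Levels are given in CPM, the counts of a gene scaled to library size with TMM factors, and they are not divided by gene length, so they compare libraries and not genes. Growing replicate 1 stood apart from its group: the chi-square per degree of freedom against replicates 2 and 3 was 31.4 and 48.9, where it was 4.89 between replicates 2 and 3. Its deviations from the group mean followed the GC content of transcripts, with a Spearman correlation of -0.709 across 15433 genes against 0.512 and 0.606 in the other two, and in the senescent group it was 0.0188, 0.483 and -0.46 for replicates 1 to 3.

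In the edgeR quasi-likelihood test, 4383 genes rose and 4725 fell in senescent cells at an adjusted p under 0.05, 27.4% and 29.5% of those tested, so that 56.9% of all genes were called. Of these, 2142 had a fitted rise of at least 2-fold and 1249 a fitted fall of that size, and the median log2 fold change over all genes was 0.0316. In 10180 genes, or 63.6%, the 3 values of each group did not overlap. These shares are the background against which the counts of gene groups below are to be read. Without growing replicate 1, 4147 genes rose and 4382 fell. A GC correction gave 3849 rises and 6696 falls, 36.5% of calls being rises in place of 48.1%, and it moved the median of all genes to -0.136. It removed from each library a curve of its deviation from the mean of all 15 libraries against GC content. Shifts of level and GC trends that differ between the groups were removed with it, and these parts were not separated. In the main test, genes whose transcripts are richer in GC tended to have higher fitted log2 fold changes (Spearman 0.278, 15433 genes). The source of this trend was not tested. Because RNA was taken from bulk cells, fewer cells with a transcript and less of it per cell cannot be told apart.

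**Figure D1:**
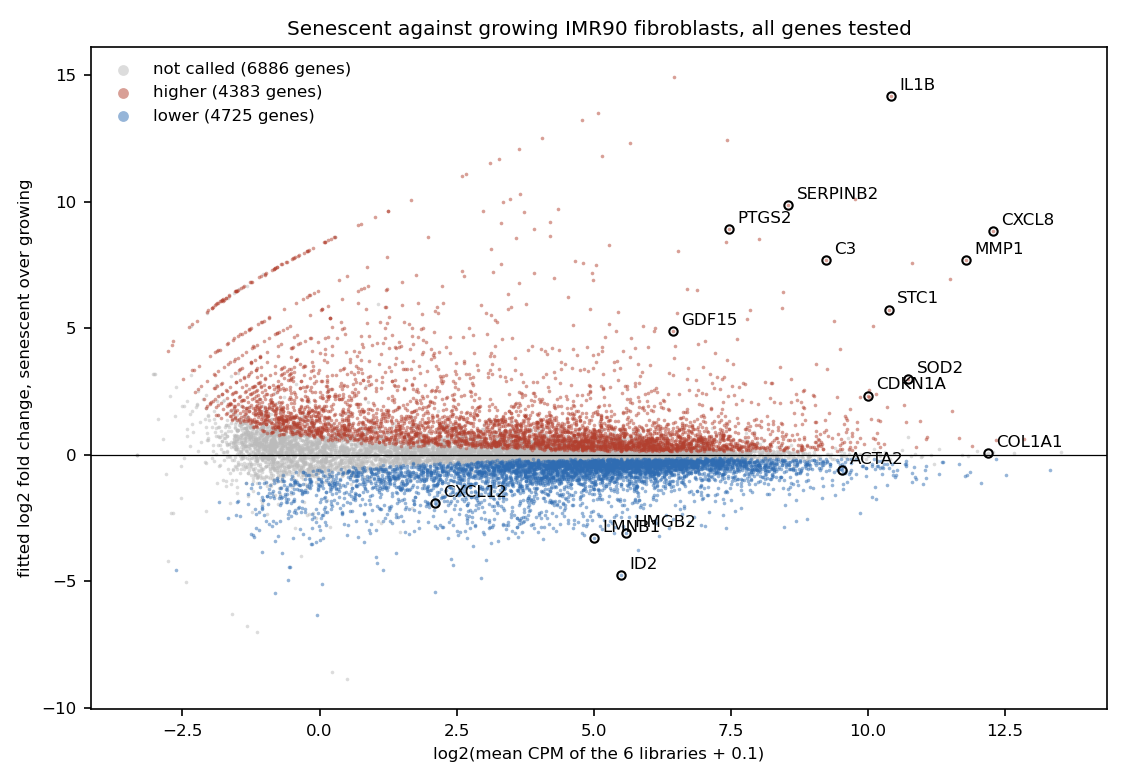
Fitted log2 fold change, senescent over growing (vertical axis), against log2 of the mean CPM of the 6 libraries plus 0.1 (horizontal axis) for the 15994 genes tested. Red points are the 4383 genes called higher, blue the 4725 called lower and grey those not called. Named secreted factors such as IL1B, CXCL8, MMP1 and C3 lie far above 0 at high levels, whereas CXCL12 lies below 0 and COL1A1 near 0. Only 4 called genes fall below -5, all at low levels.

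Rises reached further than falls. Taking called genes whose mean log2 CPM was 3 or more and whose groups did not overlap, the 12 largest rises ran from 7.58 (CXCL1) to 14.18 (IL1B) on the log2 scale, and the 12 largest falls from -3.01 (CDCA8) to -4.77 (ID2). The rises were IL1B, IL1A, CXCL5, SERPINB2, PTGS2, CXCL8, TNFSF15, CXCL6, CXCL3, C3, MMP1 and CXCL1, which encode cytokines, chemokines, a prostaglandin-forming enzyme, a complement protein, a collagenase and a serpin. The falls were ID2, GPC6, PPARG, LMNB1, PCDH7, DLGAP5, KIF20A, HMGB2, BUB1, SAMD5, CDCA2 and CDCA8, several of which act in mitosis or in chromatin. Of 13192 protein-coding genes 3577 rose (27.1%) and 4351 fell (33%), whereas of 1568 long non-coding genes 512 rose (32.7%) and 210 fell (13.4%), with a median log2 fold change of 0.361.

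In 39 genes with a mean of at least 1 CPM in senescent cells no count was found in any growing library, and the opposite held for 2 genes. The highest of the 39 was CSF3, the granulocyte colony-stimulating factor, with 169, 197 and 165 CPM in the senescent libraries, at least 4183-fold higher when the growing group as a whole is given 3 counts. CST1, a secreted inhibitor of cysteine proteases, stood at 65.7, 69.2 and 66.1 CPM, at least 1582-fold higher. CCL20, a chemokine for lymphocytes and dendritic cells, stood at 55.6, 50.9 and 57.8 CPM, at least 1292-fold higher. Several of the 39 belong to the epidermal differentiation complex or are protease inhibitors of squamous epithelium. Among them LCE1F was at least 449-fold higher, PI3 at least 295-fold and IVL at least 280.1-fold.

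The arrest genes did not move as one group: of 10 CDK inhibitors and RB family members, 2 rose and 5 fell. CDKN1A, which encodes the p53-induced inhibitor p21, stood at 290.0, 369.5 and 359 CPM in the growing libraries and 1685, 1795 and 1666 CPM in the senescent ones (log2 fold change 2.34 ± 0.10, edgeR adjusted p = 7.34e-11). CDKN2B, which encodes p15, stood at 25.4, 22.6 and 23.3 CPM in the growing libraries and 78.2, 73 and 82 CPM in the senescent ones (log2 fold change 1.71 ± 0.07, edgeR adjusted p = 3.72e-11). CDKN2A, whose transcripts encode p16 and ARF and were not counted apart, stood at 15.1, 16.7 and 15.3 CPM in the growing libraries and 10.7, 10.4 and 11.4 CPM in the senescent ones (log2 fold change -0.54 ± 0.08, edgeR adjusted p = 8.99e-05). The senescent values lay above all growing values for CDKN1A and CDKN2B and below all of them for CDKN2A. CDKN2C, which encodes p18, fell by far more (-2.83 ± 0.19), as did the RB relative RBL1 (-1.86 ± 0.13), and CDKN1B (p27) and RB1 fell too (-1.19 ± 0.08 and -0.43 ± 0.09).

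Of 15 cyclins, their kinases and CDC25 phosphatases, 12 fell and 2 rose, both of the latter D-type cyclins, with a median log2 fold change of -1.08. CCND1, the cyclin that links growth signals to CDK4 and CDK6, stood at 947, 944 and 972 CPM in the growing libraries and 2371, 2388 and 2283 CPM in the senescent ones (log2 fold change 1.3 ± 0.04, edgeR adjusted p = 7.76e-12). CCND2 rose as well (1.67 ± 0.09), whereas CCND3 fell (-1.08 ± 0.12). CCNA2, the cyclin of S phase and G2, stood at 69.3, 61.5 and 56 CPM in the growing libraries and 7.42, 8.5 and 8.4 CPM in the senescent ones (log2 fold change -2.94 ± 0.11, edgeR adjusted p = 1.8e-11). CCNB1 and CCNB2, the mitotic cyclins, fell by similar amounts (-2.47 ± 0.08 and -2.89 ± 0.10), and so did their kinase CDK1 (-2.60 ± 0.10). CCNE1 was not called (0.04, edgeR adjusted p = 0.734), while CCNE2 fell (-2.40 ± 0.13). Among 16 E2F and DREAM regulators 11 fell, with FOXM1 at -2.27 ± 0.10 and E2F8 at -2.34 ± 0.29, and 2 rose, LIN37 (1.04 ± 0.25) and the repressor E2F7 (2.54 ± 0.08). E2F7 stood at 22.1, 19.5 and 18 CPM growing and 118, 107 and 123 CPM senescent, which puts it apart from its close relative E2F8 at 4.32, 3.74 and 4.56 CPM growing and 0.933, 0.791 and 0.75 CPM senescent.

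All 24 genes of replication licensing and the fork fell, as did all 27 genes of the kinetochore, spindle and cytokinesis. The medians were -1.84 and -2.59, against 0.0316 over all genes, and 29.5% of all genes fell. In the first list the changes ran from -2.71 (MCM10) to -0.96 (PCNA). MCM6, a subunit of the replicative helicase, stood at 74.2, 64 and 62.9 CPM in the growing libraries and 12, 10.2 and 10.5 CPM in the senescent ones (log2 fold change -2.62 ± 0.11, edgeR adjusted p = 8.26e-11). PCNA, the sliding clamp, which also serves DNA repair, stood at 92.9, 83.4 and 79.5 CPM in the growing libraries and 44, 44.4 and 43.4 CPM in the senescent ones (log2 fold change -0.96 ± 0.07, edgeR adjusted p = 5.04e-08). In the second list PLK1, the kinase of mitotic entry, stood at 24.9, 31.9 and 29.1 CPM in the growing libraries and 4.62, 3.86 and 3.3 CPM in the senescent ones (log2 fold change -2.86 ± 0.17, edgeR adjusted p = 2.73e-09). BUB1, a spindle checkpoint kinase, stood at 54, 47.9 and 44.7 CPM in the growing libraries and 5.8, 4.99 and 6.55 CPM in the senescent ones (log2 fold change -3.08 ± 0.12, edgeR adjusted p = 4.42e-11). The smallest falls in that list were those of ECT2 (-0.30 ± 0.08) and INCENP (-0.69 ± 0.21), and in none of these 4 genes with full values did the groups overlap. Of 16 nucleotide supply genes 12 fell, among them RRM2, the S-phase subunit of ribonucleotide reductase (-2.04 ± 0.09), and the p53-induced subunit RRM2B was the only rise (1.06 ± 0.10). Homologous recombination and Fanconi genes fell in 17 of 18 cases, from -3.11 (EXO1, a resection nuclease) upwards, and PALB2 was not called (-0.07).

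Promoters of these lists were searched for short motifs, since their members moved together. Windows of 250 bases before to 50 after the transcription start came from RefSeq (GRCh38.p14), and both strands were read. The CHR element, at which DREAM and MuvB complexes are known to bind, was searched as TTTGAA, the E2F site as TTTGGCG or TTTCCCG, and the NF-kB site as GGNNTTTCC. No letters of one motif contain another. Letters of the TATA box (TATAAA), the AP-1 site (TGANTCA) and the antioxidant element (TGACNNNGC) were searched too. Those of the antioxidant element were in 6 of 22 kinetochore, spindle and cytokinesis promoters (27.3%). Their share was 4 of 14 (28.6%) in the list of NRF2 targets and glutathione genes, and 13.6% over all promoters. TTTGAA was found in 16 of 22 kinetochore, spindle and cytokinesis promoters (72.7%), in 0 of 21 licensing and fork promoters and in 15.4% of all 27305 promoters. The E2F letters showed the reverse order, with 3 of 22 (13.6%), 14 of 21 (66.7%) and 6.11%. Genes of both lists fell with and without a match. In the mitotic list BUB1, the largest fall, lacked TTTGAA, whereas ECT2 and INCENP, the smallest falls, held it. The homologous recombination and Fanconi promoters, whose genes fell in 17 of 18 cases, held TTTGAA in 1 of 16 (6.25%) and the E2F letters in 2 of 16 (12.5%), near the 10.1% and 9.13% of all genes tested. Among all genes of this comparison with a promoter in the table, TTTGAA was in 9.39% of 3036 that rose and 13.1% of 3698 that fell, and the E2F letters in 7.18% and 11.2%. A match is a description of letters and not a bound site, and these shares were not tested.

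The 120 bases before the start are shown for 3 mitotic genes and 2 replication genes, as examples that hold the letters. Not shown are CDC20, with its CHR match 65 bases before the start, and MCM2 and MCM3, with no E2F match in the 120 bases. The CHR letters are in capitals in the mitotic genes, 29 bases before the start in CCNB2 (chr15:59105026-59105145, plus strand) and PLK1 (chr16:23678769-23678888, plus strand) and 23 bases before it in CDCA8 (chr1:37692396-37692515, plus strand).
CCNB2: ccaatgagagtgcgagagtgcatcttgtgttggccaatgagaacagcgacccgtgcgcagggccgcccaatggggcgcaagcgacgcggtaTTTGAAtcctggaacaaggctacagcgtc
PLK1: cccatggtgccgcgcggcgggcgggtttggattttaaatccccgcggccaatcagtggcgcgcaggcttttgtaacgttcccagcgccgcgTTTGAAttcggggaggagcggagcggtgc
CDCA8: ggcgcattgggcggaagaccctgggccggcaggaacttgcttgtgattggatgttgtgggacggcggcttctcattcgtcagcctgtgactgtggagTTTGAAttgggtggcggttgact
In MCM6 (chr2:135876444-135876563, minus strand) and PCNA (chr20:5126623-5126742, minus strand) the capitals mark the E2F letters, read on the opposite strand in PCNA.
MCM6: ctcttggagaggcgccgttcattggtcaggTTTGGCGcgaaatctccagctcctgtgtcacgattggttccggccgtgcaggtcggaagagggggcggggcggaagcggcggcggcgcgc
PCNA: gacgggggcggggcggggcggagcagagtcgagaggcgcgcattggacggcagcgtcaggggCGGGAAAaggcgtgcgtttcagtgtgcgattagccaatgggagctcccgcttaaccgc
CDCA8, a subunit of the chromosomal passenger complex, stood at 32.2, 37.3 and 35.9 CPM in the growing libraries and 4.58, 3.86 and 4.6 CPM in the senescent ones (log2 fold change -3.01 ± 0.10, edgeR adjusted p = 7.74e-12), and CCNB2 at 36.6, 32.8 and 31.6 CPM growing and 4.66, 4.5 and 4.45 CPM senescent (log2 fold change -2.89 ± 0.10, edgeR adjusted p = 1.41e-11). The values of MCM6, PCNA and PLK1 are given above, and in none of these 5 genes did the groups overlap.

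**Figure D2:**
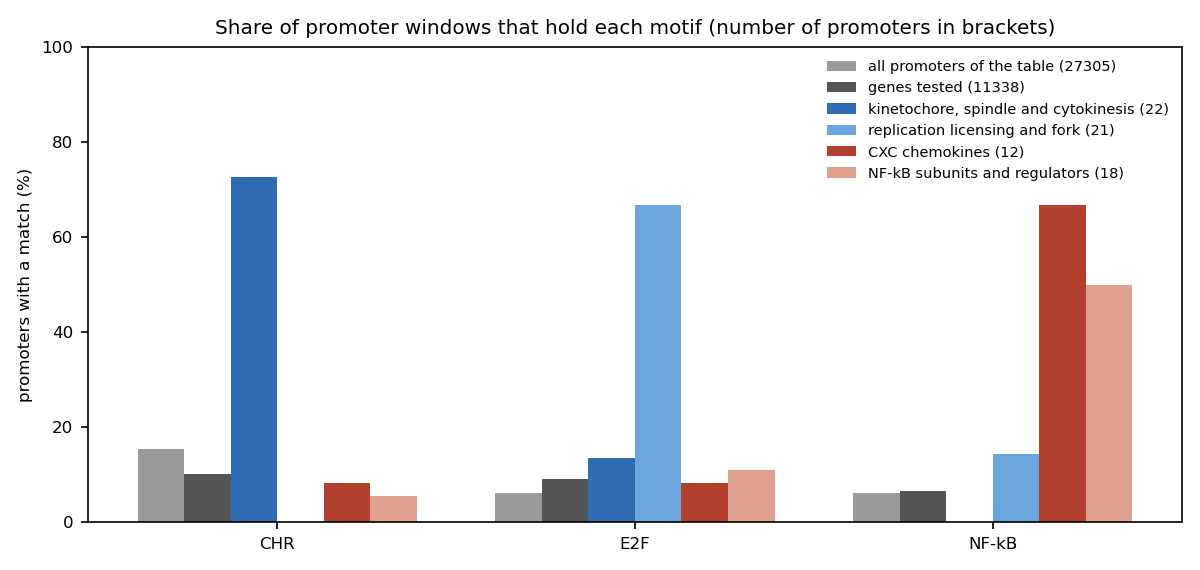
Percentage of promoter windows (vertical axis, 0 to 100%) that hold the CHR, E2F or NF-kB letters, for all promoters, for the genes tested and for 4 gene lists, with the number of promoters in brackets. The CHR bar is tallest in the mitotic list (72.7%), the E2F bar in the replication list (66.7%) and the NF-kB bar in the CXC chemokines (66.7%).

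LMNB1, which encodes lamin B1 and is widely used as a marker of senescence, stood at 62.3, 56.2 and 54.8 CPM in the growing libraries and 6.2, 5.64 and 5.8 CPM in the senescent ones (log2 fold change -3.29 ± 0.11, edgeR adjusted p = 4.02e-12). LBR and TMPO, which anchor chromatin at the inner membrane, fell (-1.75 ± 0.09 and -1.79 ± 0.09), and LMNA was not called, with a wide error (-0.01 ± 0.35). In all, 7 of 13 lamina genes fell and 1 rose, LEMD2, 0.36 ± 0.10, whose call was lost under the GC correction. Of 26 chromatin genes 21 fell and 3 rose. HMGB2, a chromatin-bending protein, stood at 93, 84.8 and 81.7 CPM in the growing libraries and 9.89, 10.2 and 9.9 CPM in the senescent ones (log2 fold change -3.11 ± 0.08, edgeR adjusted p = 5.48e-13). EZH2, the methyltransferase of Polycomb complex 2, fell (-1.70 ± 0.15). HMGA2, a component of senescence-associated heterochromatin, stood at 218, 191 and 178 CPM in the growing libraries and 606, 585 and 644 CPM in the senescent ones (log2 fold change 1.64 ± 0.08, edgeR adjusted p = 3.89e-10). HMGA1 rose (1.01 ± 0.31), but the call was lost without growing replicate 1 or senescent replicate 2, and the third rise was that of the histone variant gene MACROH2A1 (0.24 ± 0.05).

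Histone genes went the other way: 8 of 9 tested members of the replication histone list rose. H2BC21 stood at 17.6, 16.7 and 16.8 CPM in the growing libraries and 56.8, 57.8 and 56.5 CPM in the senescent ones (log2 fold change 1.74 ± 0.06, edgeR adjusted p = 4.72e-12), and H4C8 rose by 1.67 ± 0.08. H2AX was the only fall (-0.81 ± 0.21). The copies of these genes are nearly identical, how reads shared between them were counted is not given in the sources used here, and the messages of several exist with and without a poly(A) tail, so these values are uncertain.

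Of 6 tested ligands of the interleukin-1 family 5 rose and 1 fell, with a median log2 fold change of 7.91, or 5.01 with the 3 genes that had no growing count set at their lower bounds. Those 3 genes could pass the count filter only through senescent libraries, so a fall was not possible for them. IL1B stood at 0.159, 0.164 and 0.094 CPM in the growing libraries and 2643, 2670.4 and 2886 CPM in the senescent ones (log2 fold change 14.18 ± 0.13, edgeR adjusted p = 2e-17). IL1A, the membrane-bound member known to start the secretory program from within the cell, stood at 0.0793, 0.0411 and 0.047 CPM in the growing libraries and 350.4, 328 and 355 CPM in the senescent ones (log2 fold change 12.44 ± 0.17, edgeR adjusted p = 6.12e-16). For IL1A this rests on 4 growing counts in all and for IL1B on 10, so the size of the fold, though not the level in senescent cells, is uncertain. IL33, an alarmin of barrier tissues, had 0, 0 and 0 CPM growing and 0.973, 0.89 and 1.05 CPM senescent, at least 22.9-fold higher. IL1RN, which encodes the natural antagonist, had 0, 0 and 0 CPM growing and 0.365, 0.544 and 0.25 CPM senescent, at least 9.12-fold higher but below 1 CPM. IL18 fell (-2.49 ± 0.54) at a level near 1 CPM.

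The receptor side of interleukin-1 was mixed, with 7 of 13 genes higher and 4 lower. IL1R1, the signalling receptor, stood at 109, 99.5 and 102 CPM in the growing libraries and 167, 166 and 174 CPM in the senescent ones (log2 fold change 0.71 ± 0.06, edgeR adjusted p = 1.12e-07). IRAK2 and IRAK3, which carry and restrain the signal, rose by 3.12 ± 0.06 and 3.36 ± 0.11. IRAK3 stood at 4.64, 4.15 and 5.54 CPM growing and 48.9, 45.7 and 52 CPM senescent, with no overlap. The adaptor MYD88, the kinase IRAK4 and CASP1, the protease that matures IL-1 beta, fell (-0.71 ± 0.07, -0.84 ± 0.09 and -1.23 ± 0.11).

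Ligands of the interleukin-6 family rose in 5 of 6 cases. IL6 stood at 8.45, 8.22 and 7.66 CPM in the growing libraries and 679, 678 and 723 CPM in the senescent ones (log2 fold change 6.42 ± 0.06, edgeR adjusted p = 2.75e-17). LIF stood at 41.5, 60.8 and 60.9 CPM in the growing libraries and 378, 405 and 349.7 CPM in the senescent ones (log2 fold change 2.80 ± 0.18, edgeR adjusted p = 3.32e-08), and IL11, a fibrogenic member, at 33.2, 36.3 and 35 CPM growing and 209, 204 and 199.8 CPM senescent (log2 fold change 2.55 ± 0.05, edgeR adjusted p = 4.01e-14). Senescent values lay above every growing value in all 3. On the receptor side 3 of 10 genes rose and 5 fell. LIFR, the receptor subunit for LIF, stood at 209, 169.8 and 174 CPM in the growing libraries and 28.7, 28.3 and 29.9 CPM in the senescent ones (log2 fold change -2.67 ± 0.09, edgeR adjusted p = 6.48e-12), opposite in direction to its ligand. The shared subunit IL6ST and IL6R fell less (-0.45 ± 0.09 and -0.82 ± 0.07), OSMR rose (0.63 ± 0.08), and the feedback inhibitors SOCS1 and SOCS3 rose by 1.43 ± 0.25 and 0.62 ± 0.09.

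Chemokines rose along with interleukin-1. Of 11 tested CXC chemokines 9 rose, with a median log2 fold change of 7.58. CXCL8, the main neutrophil attractant of human cells, stood at 25.7, 20.8 and 18.6 CPM in the growing libraries and 9938, 9587 and 10323 CPM in the senescent ones (log2 fold change 8.84 ± 0.15, edgeR adjusted p = 3.61e-15). CXCL1 stood at 20.2, 17.3 and 18 CPM in the growing libraries and 3611, 3414 and 3574 CPM in the senescent ones (log2 fold change 7.58 ± 0.10, edgeR adjusted p = 3.34e-16). CXCL5 stood at 1.75, 1.48 and 1.41 CPM in the growing libraries and 1756, 1666 and 1768 CPM in the senescent ones (log2 fold change 10.12 ± 0.12, edgeR adjusted p = 9.08e-17). In these 3 genes the senescent libraries agreed closely with each other and lay far above the growing ones. CXCL2, CXCL3 and CXCL6 rose by 7.51, 8.06 and 8.42, and the T-cell attractant CXCL10 by 4.89 ± 0.10. CXCL1, CXCL2 and CXCL3 are near-identical copies, as are CXCL5 and CXCL6, so their shares of reads are uncertain. CXCL12, the homeostatic ligand of CXCR4, went down, at 6.86, 6.62 and 6.48 CPM in the growing libraries and 1.46, 1.78 and 2.1 CPM in the senescent ones (log2 fold change -1.91 ± 0.18, edgeR adjusted p = 6.36e-07), and so did CXCL16 (-1.19 ± 0.25). Of 5 CC and other chemokines tested 4 rose, and CCL2, which draws monocytes, stood at 54, 53.1 and 49.8 CPM in the growing libraries and 353, 361 and 395 CPM in the senescent ones (log2 fold change 2.82 ± 0.06, edgeR adjusted p = 4.11e-14).

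The NF-kB letters were counted in the promoters of this family. GGNNTTTCC was found in 8 of 12 CXC promoters (66.7%), all 8 of them among the genes that rose, in 9 of 18 promoters of NF-kB subunits and regulators (50%) and in 6.26% of all promoters. The CXC promoters without it were those of CXCL12, which fell, and of CXCL9, CXCL14 and PPBP, which were not tested. As 9 of 11 tested CXC genes rose, the matches could hardly lie elsewhere and do not link the letters to the rise. The share of promoters with GGNNTTTCC was 6.82% over all genes that rose and 6.71% over all genes that fell, and 0 of 7 in the metalloproteinase list. CXC promoters also held the TATA box letters in 4 of 12 (33.3%) and the AP-1 letters in 3 of 12 (25%). Over all promoters these shares were 12% and 7.76%. The promoters of CXCL1, CXCL2 and CXCL3 are close copies of each other, as are those of CXCL5 and CXCL6. Their matches are therefore not separate cases. The 120 bases before the start are shown for chemokine genes with a single match and with a pair of them, in capitals. The matches lie 91 bases before the start in CXCL8 (chr4:73740449-73740568, plus strand), 78 and 53 bases before it in CXCL1 (chr4:73869273-73869392, plus strand), and 90 in CXCL5 (chr4:73998678-73998797, minus strand). IL6 (chr7:22727080-22727199, plus strand) is set beside them as a cytokine of another family, with its match at 72 bases.
CXCL8: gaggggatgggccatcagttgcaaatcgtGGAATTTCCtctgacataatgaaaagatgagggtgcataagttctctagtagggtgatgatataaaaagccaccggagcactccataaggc
CXCL1: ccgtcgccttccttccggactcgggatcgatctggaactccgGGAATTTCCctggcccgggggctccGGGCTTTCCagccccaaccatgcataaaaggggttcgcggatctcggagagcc
CXCL5: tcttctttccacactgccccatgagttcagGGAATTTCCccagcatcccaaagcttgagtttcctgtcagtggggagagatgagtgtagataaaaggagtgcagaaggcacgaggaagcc
IL6: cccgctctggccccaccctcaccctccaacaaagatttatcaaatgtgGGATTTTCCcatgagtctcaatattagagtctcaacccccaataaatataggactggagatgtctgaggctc

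**Figure D3:**
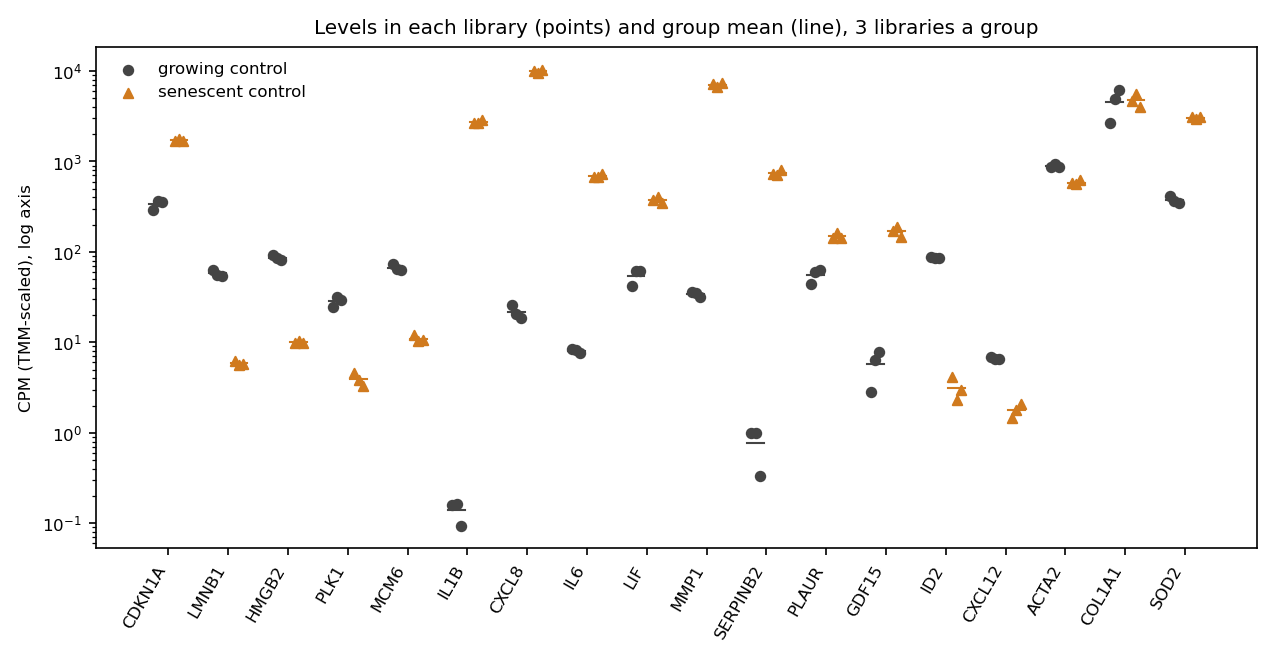
Level of 18 genes in each library, in TMM-scaled CPM on a log axis, with growing controls as circles, senescent controls as triangles and the group mean as a line (3 libraries a group). The groups lie apart in every gene shown but COL1A1, and the heights of different genes are not comparable because CPM is not divided by gene length.

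Colony-stimulating and other haematopoietic factors split evenly, 4 of 9 higher and 4 lower. CSF2, which encodes GM-CSF, had 75.5, 80.1 and 56.2 CPM in the senescent libraries and a single count in the growing group, a ratio of 5026 with an exact 95% counting interval of 901.6 to 198548. CSF1, the macrophage factor of resting fibroblasts, stood at 72.5, 100.1 and 112 CPM in the growing libraries and 43.4, 53.6 and 43.2 CPM in the senescent ones (log2 fold change -1.02 ± 0.21, edgeR adjusted p = 0.000922). IL7 and IL15 fell (-1.96 ± 0.53 and -1.03 ± 0.18), and IL32 rose (2.83 ± 0.17).

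Growth factors of the EGF family rose in 4 of 5 tested cases. NRG1, a ligand of ERBB3 and ERBB4, stood at 9.8, 8.63 and 7.56 CPM in the growing libraries and 447, 447 and 466 CPM in the senescent ones (log2 fold change 5.71 ± 0.08, edgeR adjusted p = 9.61e-16). EREG, a ligand of EGFR, stood at 39.4, 32.3 and 32.3 CPM in the growing libraries and 294, 283 and 309.8 CPM in the senescent ones (log2 fold change 3.09 ± 0.09, edgeR adjusted p = 2.13e-12). AREG stood at 0, 0.781 and 0.517 CPM growing and 59.6, 61.2 and 64.5 CPM senescent (log2 fold change 7.17 ± 1.40, edgeR adjusted p = 0.000809), a call that limma-voom did not make (adjusted p = 0.232). The log2 fold change of AREG was 6.542 without growing replicate 1 and 7.987 without growing replicate 2. Among their receptors EGFR rose (0.69 ± 0.05) and ERBB2 fell (-0.88 ± 0.27), a call not made without growing replicate 3. ERBB3 and ERBB4 had too few counts to test. Among VEGF, FGF, PDGF, HGF and IGF ligands 9 of 16 rose, with VEGFA at 53.6, 62.1 and 58.2 CPM growing and 286, 301 and 283 CPM senescent (2.32 ± 0.08) and FGF2 at 174, 148 and 139 CPM growing and 683, 652 and 711 CPM senescent (2.15 ± 0.09), and 4 fell, with FGF1 at -1.40 ± 0.11 and PDGFD at -1.56 ± 0.13. HGF, which is secreted by fibroblasts to act on epithelium, fell slightly (-0.26 ± 0.08), a call lost without growing replicate 1 or senescent replicate 2. Their receptors included a fall of MET, the HGF receptor, from 112, 91 and 91.4 CPM growing and 39.9, 39 and 41.7 CPM senescent (log2 fold change -1.29 ± 0.10, edgeR adjusted p = 4.24e-08).

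Of 16 TGF-beta and BMP ligands and antagonists 8 rose and 6 fell. BMP2 stood at 11.1, 9.45 and 10.5 CPM in the growing libraries and 433, 423 and 437 CPM in the senescent ones (log2 fold change 5.38 ± 0.08, edgeR adjusted p = 1.39e-15). GDF15, a stress-induced factor and p53 target, stood at 2.86, 6.45 and 7.8 CPM in the growing libraries and 172, 188 and 145 CPM in the senescent ones (log2 fold change 4.90 ± 0.31, edgeR adjusted p = 2.88e-08). INHBA, which encodes activin A, stood at 253, 226 and 227 CPM in the growing libraries and 1157, 1116 and 1186 CPM in the senescent ones (log2 fold change 2.29 ± 0.06, edgeR adjusted p = 7.02e-13). No library of either group overlapped the other in these 3 genes, although growing replicate 1 was the lowest for GDF15. The BMP antagonist GREM1 rose (1.96 ± 0.08), whereas FST, the activin antagonist, fell (-1.3 ± 0.06), and TGFB2 fell (-0.68 ± 0.08). Among 16 receptors and targets 9 fell and 3 rose. ID2, an inhibitor of differentiation and a common BMP target, stood at 88.7, 86.5 and 84.8 CPM in the growing libraries and 4.14, 2.32 and 2.95 CPM in the senescent ones (log2 fold change -4.77 ± 0.16, edgeR adjusted p = 6.54e-12). ID1 stood at 18.1, 21.2 and 24.2 CPM growing and 2.72, 2.67 and 3.3 CPM senescent (log2 fold change -2.87 ± 0.19, edgeR adjusted p = 8.67e-09), and ID4 and SMAD6 fell (-3.87 ± 0.31 and -2.17 ± 0.23). ID3 fell (-0.97 ± 0.33), a call lost without growing replicate 2 or 3 or senescent replicate 1 or 3. The receptor genes BMPR1B and ACVRL1 went in opposite directions (-2.20 ± 0.18 and 2.72 ± 0.13).

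Matrix metalloproteinases rose in 10 of 13 tested cases. MMP1, the interstitial collagenase, stood at 36, 35.1 and 31.8 CPM in the growing libraries and 7111, 6727 and 7303 CPM in the senescent ones (log2 fold change 7.68 ± 0.12, edgeR adjusted p = 1.32e-15). MMP3, stromelysin 1, stood at 51.3, 46.1 and 42.9 CPM in the growing libraries and 5624, 5473 and 6027 CPM in the senescent ones (log2 fold change 6.93 ± 0.11, edgeR adjusted p = 1.63e-15). MMP10, stromelysin 2, stood at 0.317, 0.164 and 0.235 CPM in the growing libraries and 76, 73.7 and 80.5 CPM in the senescent ones (log2 fold change 8.29 ± 0.16, edgeR adjusted p = 1.99e-14). All 3 genes were low in every growing library and high in every senescent one. MMP14, a membrane-bound member, rose by 1.82 ± 0.16 and MMP2, gelatinase A, by 0.89 ± 0.15. MMP24 fell (-1.01 ± 0.36), but without growing replicate 3 or any one of the senescent replicates no member of the list was called lower. Of 5 inhibitors 2 rose, TIMP1 (0.98 ± 0.22) and TIMP3 (0.24 ± 0.06, lost under the GC correction), and 2 fell, TIMP2 (-0.43 ± 0.05) and the membrane-anchored RECK (-0.83 ± 0.07).

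The plasminogen system rose in 6 of 7 members. SERPINB2, which encodes PAI-2, stood at 0.992, 0.986 and 0.329 CPM in the growing libraries and 725, 707 and 801 CPM in the senescent ones (log2 fold change 9.87 ± 0.19, edgeR adjusted p = 1.64e-14). PLAT, tissue plasminogen activator, stood at 77.3, 90.7 and 92.7 CPM in the growing libraries and 678, 711 and 672 CPM in the senescent ones (log2 fold change 2.98 ± 0.09, edgeR adjusted p = 2.66e-12), and PLAU and its receptor PLAUR rose by 1.71 ± 0.06 and 1.42 ± 0.17. THBD, thrombomodulin, rose by 7.19 ± 0.17. Of 17 ADAM and ADAMTS proteases 7 rose and 5 fell, the latter including ADAM10 (-0.72 ± 0.09) and ADAMTS1 (-1.32 ± 0.06).

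IGF-binding proteins and the modulators of their cleavage rose in 8 of 10 cases, with none called lower. PAPPA, the protease that cleaves IGFBP4 and IGFBP5, stood at 64.3, 62.5 and 61.3 CPM in the growing libraries and 2113, 2099 and 2178 CPM in the senescent ones (log2 fold change 5.09 ± 0.06, edgeR adjusted p = 8.07e-17). STC1, an inhibitor of PAPPA, stood at 54.3, 48.4 and 44.4 CPM in the growing libraries and 2559, 2477 and 2795 CPM in the senescent ones (log2 fold change 5.73 ± 0.10, edgeR adjusted p = 4.03e-15). IGFBP3 stood at 450.4, 461 and 458 CPM growing and 1074, 1045 and 1072 CPM senescent (log2 fold change 1.22 ± 0.04, edgeR adjusted p = 1.04e-11). The protease, its inhibitor and its substrate IGFBP4 (1.33 ± 0.06) thus all rose. In prostaglandin synthesis PTGS2, the inducible cyclooxygenase, stood at 0.793, 0.781 and 0.611 CPM in the growing libraries and 352, 342 and 367 CPM in the senescent ones (log2 fold change 8.90 ± 0.13, edgeR adjusted p = 9.61e-16), and 6 of 11 genes rose. PTGES, a prostaglandin E synthase, rose by 2.55 ± 0.53, and HPGD, which breaks prostaglandins down, had no count in either group. Of the receptors, PTGER2 fell (-2.58 ± 0.12) and PTGER4 rose (1.01 ± 0.11).

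Complement and acute-phase genes rose in 9 of 13 cases and fell in 3, of which only 1 fell without growing replicate 1. C3, the central complement component, stood at 5.0, 6.37 and 5.87 CPM in the growing libraries and 1179, 1254 and 1166 CPM in the senescent ones (log2 fold change 7.71 ± 0.12, edgeR adjusted p = 1.65e-15). CFB, of the alternative pathway, rose by 3.05 ± 0.18, while C1R and C1S, of the classical pathway, fell (-0.75 ± 0.09 and -0.20 ± 0.07). SAA2, an acute-phase apolipoprotein, stood at 0.0397, 0.0822 and 0.047 CPM growing and 30.1, 29.2 and 30.4 CPM senescent (log2 fold change 8.91 ± 0.17, edgeR adjusted p = 2.14e-14), and SAA1 rose from a single growing count, a ratio of 1757 with a counting interval of 314.9 to 69444. SAA1 and SAA2 are near-identical, so their shares are uncertain.

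Of 20 NF-kB subunits and regulators 15 rose and 1 fell, with a median of 0.828. Among the subunits RELA rose by 0.54 ± 0.15, NFKB1 by 0.29 ± 0.05 and NFKB2 by 1.67 ± 0.13. TNFAIP3, which encodes the ubiquitin editor A20, stood at 11.2, 10.4 and 9.16 CPM in the growing libraries and 117, 120.5 and 121 CPM in the senescent ones (log2 fold change 3.54 ± 0.07, edgeR adjusted p = 3.99e-14). NFKBIZ, an inducible nuclear cofactor, stood at 38.7, 37 and 33.1 CPM in the growing libraries and 281, 278 and 299.9 CPM in the senescent ones (log2 fold change 2.98 ± 0.08, edgeR adjusted p = 3.03e-13). In the AP-1 family 11 of 14 genes rose, FOSB (4.06 ± 0.33) and FOS (2.96 ± 0.17) from low levels, while FOSL1 and FOSL2 were not called (-0.05 and -0.02). FOSL1 was called lower under the GC correction. CEBPB stood at 16, 20.6 and 22.7 CPM in the growing libraries and 57, 59.4 and 49.8 CPM in the senescent ones (log2 fold change 1.49 ± 0.17, edgeR adjusted p = 4.18e-06), and CEBPD, CEBPG and DDIT3 fell (-0.45 ± 0.09, -0.63 ± 0.08 and -0.54 ± 0.09).

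Of 13 RAS and RAF family genes only HRAS rose. It stood at 7.5, 15.8 and 19.8 CPM in the growing libraries and 95, 106 and 77 CPM in the senescent ones (log2 fold change 2.70 ± 0.38, edgeR adjusted p = 5.75e-05), and the lowest senescent value was above the highest growing one, although growing replicate 1 was the lowest of its group. NRAS fell (-1.01 ± 0.09). In all, 5 genes of the list fell, or 8 under the GC correction. Negative feedback and ETS targets of MAPK signalling rose in 15 of 21 cases and fell in 2. DUSP4, a nuclear phosphatase of ERK, stood at 3.89, 4.69 and 4.84 CPM in the growing libraries and 129, 133 and 134 CPM in the senescent ones (log2 fold change 4.89 ± 0.08, edgeR adjusted p = 2.61e-15). DUSP6, its cytoplasmic counterpart, stood at 64.7, 57.3 and 60.8 CPM in the growing libraries and 318, 300.3 and 328 CPM in the senescent ones (log2 fold change 2.37 ± 0.07, edgeR adjusted p = 1.16e-12). SPRY2 and SPRY4, inhibitors of RAS activation, rose by 2.10 ± 0.06 and 1.96 ± 0.05, ETV4 by 2.42 ± 0.22 and IER3 by 3.46 ± 0.10, and DUSP1 and DUSP10 were the falls (-0.77 ± 0.06 and -0.36 ± 0.06).

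Of 11 Notch genes 5 rose and 3 fell, and of 16 WNT genes 9 rose and 5 fell. JAG1 fell (-1.40 ± 0.06), DLL4 rose (2.17 ± 0.24) and the target HEY1 rose from 0.595, 0.658 and 0.799 CPM growing and 7.34, 7.76 and 8.25 CPM senescent (log2 fold change 3.51 ± 0.13, edgeR adjusted p = 2.57e-11). WNT16, reported in stressed fibroblasts, stood at 16.9, 15.4 and 15.2 CPM in the growing libraries and 149.8, 146 and 153 CPM in the senescent ones (log2 fold change 3.24 ± 0.07, edgeR adjusted p = 4.01e-14), and WNT5A rose by 1.36 ± 0.08. The antagonist DKK2 rose by 5.98 ± 0.23, while SFRP1 and DKK1 fell (-0.91 ± 0.07 and -1.04 ± 0.17). Transcription factors of lung mesenchyme fell in 11 of 21 cases and rose in 5. NR2F2 stood at 152, 139 and 138 CPM growing and 35.8, 33.9 and 38.4 CPM senescent (log2 fold change -1.99 ± 0.06, edgeR adjusted p = 3.35e-12), TBX5 and TCF21 fell (-0.82 ± 0.07 and -0.45 ± 0.05), and FOXF1 rose (0.65 ± 0.13).

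COL1A1, a chain of the main fibrillar collagen, stood at 2685, 4880.1 and 6196 CPM in the growing libraries and 4719.7, 5578 and 3968 CPM in the senescent ones (log2 fold change 0.05 ± 0.34, edgeR adjusted p = 0.908), so that the groups overlapped and no difference passed the test. The log2 fold change of COL1A1 turned to -0.2195 without growing replicate 1, and to -0.4425 under the GC correction, where the gene was called lower. COL3A1 rose slightly (0.28 ± 0.09), a call lost without growing replicate 1 or senescent replicate 2 and under the GC correction. Of 9 fibrillar collagens 5 rose and none fell, COL11A1 the most (3.06 ± 0.13), whereas 2 were called lower under the GC correction. Network and other collagens rose in 10 of 18 cases and fell in 4, with 2 falls without growing replicate 2 or senescent replicate 3. COL8A1, a short-chain collagen of vessel walls, stood at 167, 167 and 169 CPM in the growing libraries and 855, 857 and 846 CPM in the senescent ones (log2 fold change 2.35 ± 0.05, edgeR adjusted p = 2.26e-14). COL7A1, of anchoring fibrils, stood at 11.5, 25.6 and 35.8 CPM in the growing libraries and 329.9, 383 and 247 CPM in the senescent ones (log2 fold change 3.73 ± 0.50, edgeR adjusted p = 3.64e-05). COL15A1 fell (-2.67 ± 0.11). COL10A1, otherwise a cartilage collagen, had 20.2, 19.3 and 19.3 CPM in the senescent libraries from 2 growing counts, a ratio of 694.1 with a counting interval of 191.8 to 5738.

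Of 17 matrix glycoproteins and proteoglycans 5 rose and 3 fell, or 8 fell under the GC correction. FN1, fibronectin, was not called (0.10 ± 0.05, edgeR adjusted p = 0.105), nor were SPARC and THBS1 (-0.01 and 0.02). POSTN, periostin, stood at 13.2, 12.1 and 11.5 CPM in the growing libraries and 59.1, 60.3 and 61.9 CPM in the senescent ones (log2 fold change 2.29 ± 0.08, edgeR adjusted p = 1.71e-11), and TNC, tenascin C, rose by 2.39 ± 0.07. Among crosslinking and processing enzymes 10 of 16 rose, with P4HA2 at 1.52 ± 0.06 and PLOD2 at 1.40 ± 0.09, and COLGALT2 fell the most (-3.43 ± 0.12). HAS2, the main hyaluronan synthase of fibroblasts, stood at 1.86, 1.56 and 1.64 CPM in the growing libraries and 84.3, 80.6 and 89.5 CPM in the senescent ones (log2 fold change 5.64 ± 0.11, edgeR adjusted p = 2.59e-14). GPC6, a glypican, stood at 114, 97.7 and 99.1 CPM in the growing libraries and 7.5, 6.67 and 8.35 CPM in the senescent ones (log2 fold change -3.79 ± 0.11, edgeR adjusted p = 1.29e-12). Integrins rose in 9 of 15 cases, ITGA2 by 1.38 ± 0.09, and ITGA8 and ITGA4 fell (-2.45 ± 0.10 and -2.16 ± 0.09).

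Contractile and YAP target genes fell in 18 of 24 cases, with a median of -0.627 and MYH11 as the only rise (2.31 ± 0.14). ACTA2, smooth muscle actin, stood at 869, 926 and 863 CPM in the growing libraries and 574, 562 and 617 CPM in the senescent ones (log2 fold change -0.60 ± 0.06, edgeR adjusted p = 9.8e-07). MYH10, a non-muscle myosin, stood at 255, 243 and 254 CPM in the growing libraries and 74.8, 77.1 and 73.3 CPM in the senescent ones (log2 fold change -1.74 ± 0.05, edgeR adjusted p = 3.96e-13). CCN1 and CCN2, the usual YAP readouts, fell (-1.16 ± 0.05 and -0.76 ± 0.04), and in these 4 genes no senescent value reached a growing one.

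**Figure D4:**
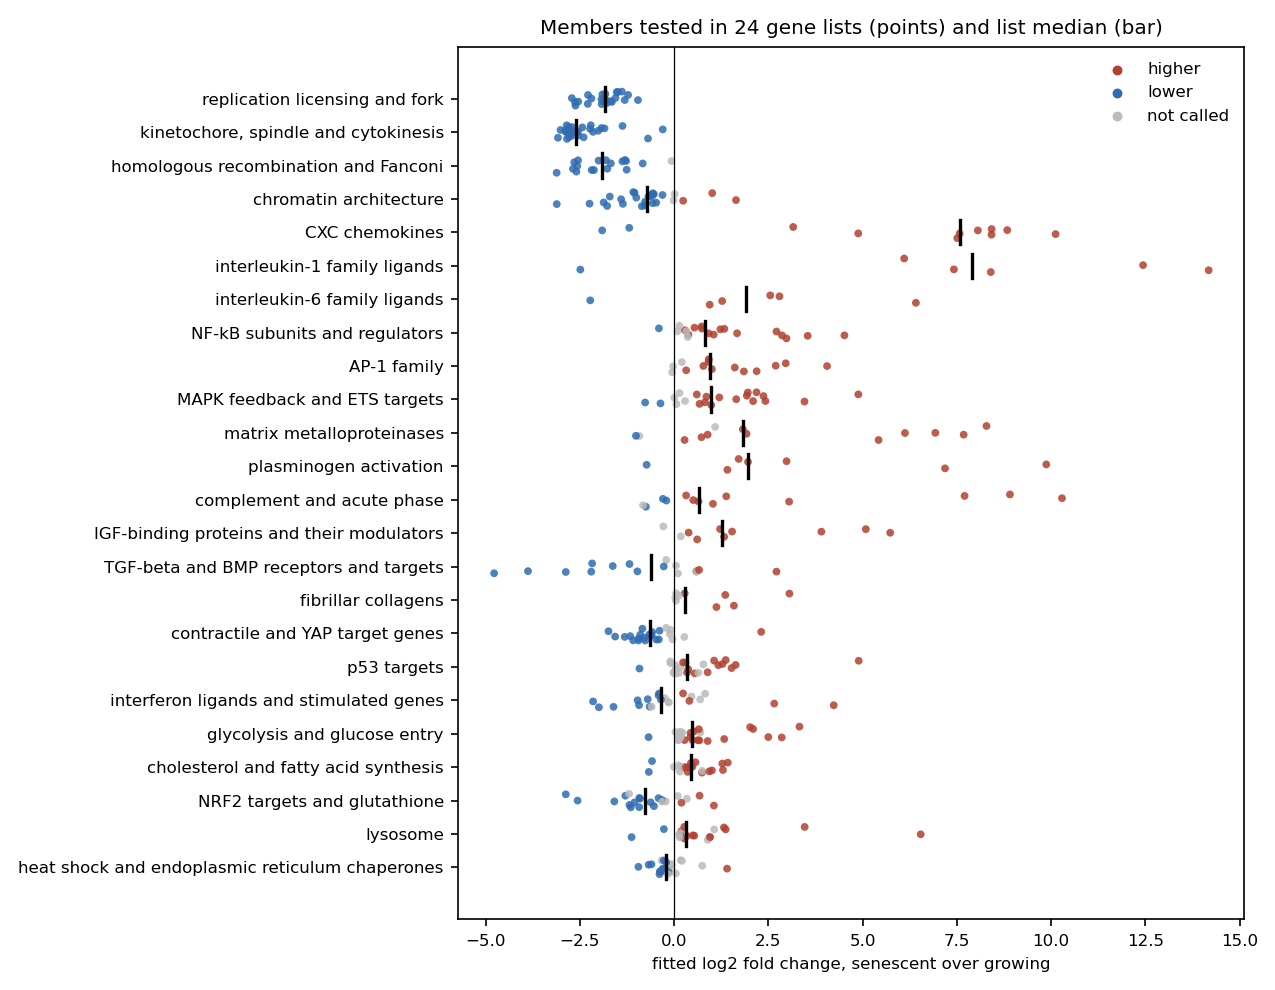
Fitted log2 fold change, senescent over growing (horizontal axis), of every tested member of 24 gene lists, with the list median as a bar and red, blue and grey for members called higher, lower or not called. Replication, mitosis and recombination lists lie wholly at or below 0, while CXC chemokines and metalloproteinases reach far to the right.

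Survival genes of the BCL2 family rose in 4 of 5 cases, and BCL2 itself fell. BCL2 stood at 10.2, 10.4 and 9.26 CPM in the growing libraries and 1.62, 0.84 and 1.15 CPM in the senescent ones (log2 fold change -3.02 ± 0.24, edgeR adjusted p = 8.04e-08). BCL2L1, which encodes BCL-xL, stood at 48.8, 63.5 and 65.5 CPM in the growing libraries and 139, 137 and 129.5 CPM in the senescent ones (log2 fold change 1.19 ± 0.12, edgeR adjusted p = 1.34e-06), and MCL1 rose by 0.93 ± 0.09. BCL2A1, an NF-kB target, had 14.8, 13.6 and 18.5 CPM in the senescent libraries and a single growing count, a ratio of 1103 with a counting interval of 197.6 to 43623. Of 10 death-promoting members 3 rose, or 5 without growing replicate 3, among them BMF at 1.63, 2.67 and 2.3 CPM growing and 38.4, 40.7 and 38 CPM senescent (log2 fold change 4.15 ± 0.15, edgeR adjusted p = 1.25e-11). Death receptors and TNF ligands rose in 8 of 11 cases. TNFSF15, a TNF ligand of endothelium, stood at 1.78, 1.27 and 1.08 CPM in the growing libraries and 518, 492 and 537 CPM in the senescent ones (log2 fold change 8.53 ± 0.13, edgeR adjusted p = 2.13e-15). The decoy receptors for TRAIL, TNFRSF10C and TNFRSF10D, rose by 2.75 ± 0.17 and 2.57 ± 0.05, and its death receptors TNFRSF10A and TNFRSF10B by 2.36 ± 0.08 and 0.89 ± 0.05.

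Surface genes read by immune cells rose in 11 of 17 cases and fell in 3, or 5 under the GC correction. ICAM1, the ligand of leukocyte integrins, stood at 64.8, 79.1 and 79.3 CPM in the growing libraries and 522, 547 and 515 CPM in the senescent ones (log2 fold change 2.83 ± 0.09, edgeR adjusted p = 2.27e-12). CD274, which encodes PD-L1, stood at 18, 13.5 and 13.6 CPM in the growing libraries and 43.7, 40.4 and 44.1 CPM in the senescent ones (log2 fold change 1.51 ± 0.10, edgeR adjusted p = 1.16e-08). MICA, a ligand of the activating receptor NKG2D, rose by 1.24 ± 0.07, HLA-E, a ligand of inhibitory NKG2A, by 0.99 ± 0.12, and CD47 fell (-0.83 ± 0.11).

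p53 targets rose in 13 of 25 cases and fell in 1, GADD45A (-0.92 ± 0.08), or in 4 under the GC correction. Beside CDKN1A and GDF15, the DNA repair gene DDB2 stood at 12.5, 14.5 and 14.4 CPM growing and 40.4, 39.6 and 39.3 CPM senescent (log2 fold change 1.53 ± 0.08, edgeR adjusted p = 5.91e-10), MDM2 rose by 0.55 ± 0.09, and ZMAT3, PLK2 and CCNG1 were not called (-0.02, 0.02 and 0.02).

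IFNB1 and IFNL1 had no count in any of the 6 libraries, and of 21 tested ligands and stimulated genes 10 fell and 4 rose, with a median of -0.349. IFIT1 stood at 17, 15.6 and 12.5 CPM in the growing libraries and 3.28, 3.56 and 4.5 CPM in the senescent ones (log2 fold change -1.99 ± 0.15, edgeR adjusted p = 4.63e-08). GBP1 stood at 245, 219 and 206 CPM in the growing libraries and 74.6, 71 and 74.7 CPM in the senescent ones (log2 fold change -1.60 ± 0.07, edgeR adjusted p = 1.83e-10). OASL rose from low counts (2.66 ± 0.40), as did IFNE, a constitutive interferon of epithelium (4.23 ± 0.27). Among nucleic acid sensors 8 of 17 fell and 4 rose, of which 2 rose without any one of growing replicates 1 and 2 and senescent replicates 1 and 2. STING1, the adaptor of cytosolic DNA sensing, stood at 19.4, 23.1 and 23.8 CPM in the growing libraries and 55.7, 59.5 and 54.4 CPM in the senescent ones (log2 fold change 1.36 ± 0.11, edgeR adjusted p = 6.54e-08). CGAS, its upstream enzyme, stood at 8.17, 7.15 and 7.19 CPM growing and 5.35, 4.45 and 4.9 CPM senescent (log2 fold change -0.61 ± 0.13, edgeR adjusted p = 0.000849). TLR3, the endosomal sensor of double-stranded RNA, stood at 10.6, 9.54 and 9.11 CPM in the growing libraries and 0.243, 0.742 and 0.7 CPM in the senescent ones (log2 fold change -4.14 ± 0.31, edgeR adjusted p = 4.75e-08).

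Glycolysis genes rose in 15 of 25 cases and fell in 1, or in 5 under the GC correction. HK2, the inducible hexokinase, stood at 77.5, 72.7 and 79.5 CPM in the growing libraries and 316, 311 and 304 CPM in the senescent ones (log2 fold change 2.02 ± 0.06, edgeR adjusted p = 1.16e-12). PFKFB4 and PFKFB3, which set the level of an activator of glycolysis, rose by 3.33 ± 0.17 and 1.33 ± 0.06, and GAPDH and ENO1 were not called (0.16 and 0.11). Cholesterol and fatty acid genes rose in 13 of 20 cases and fell in 2, or 5 under the GC correction. INSIG1 rose by 1.43 ± 0.07, DHCR7 by 1.00 ± 0.16 and HMGCS1 by 0.57 ± 0.11, while SCD fell (-0.67 ± 0.07). Amino acid genes went down in 13 of 21 cases. ASNS, asparagine synthetase, stood at 80.9, 74.1 and 73.2 CPM in the growing libraries and 14.2, 12.8 and 13.9 CPM in the senescent ones (log2 fold change -2.48 ± 0.07, edgeR adjusted p = 1.81e-12). PSAT1 and PHGDH, of serine synthesis, fell (-2.59 ± 0.10 and -2.34 ± 0.15), along with ATF4, their known regulator (-0.67 ± 0.06).

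Of 22 NRF2 targets and glutathione genes 14 fell and 3 rose, with a median of -0.761. SLC7A11, the cystine importer, stood at 710.0, 589.5 and 569.5 CPM in the growing libraries and 86.6, 82.2 and 86.7 CPM in the senescent ones (log2 fold change -2.87 ± 0.10, edgeR adjusted p = 1.48e-11). NQO1, a quinone reductase, stood at 879, 794 and 749 CPM in the growing libraries and 142, 135 and 134 CPM in the senescent ones (log2 fold change -2.56 ± 0.09, edgeR adjusted p = 1.01e-11). NFE2L2, which encodes NRF2, fell (-1.05 ± 0.08), and GCLC rose (0.68 ± 0.07). In the thioredoxin and peroxide list 12 of 20 genes fell and 5 rose, the rises numbering 2 without growing replicate 1 or senescent replicate 1 or 2 and 3 without growing replicate 2. TXNRD1, the cytosolic thioredoxin reductase that the series as a whole concerns, stood at 1779, 1603 and 1525 CPM in the growing libraries and 506, 511 and 528 CPM in the senescent ones (log2 fold change -1.67 ± 0.07, edgeR adjusted p = 1.12e-10). SOD2, the mitochondrial dismutase and an NF-kB target, stood at 420.4, 367 and 348 CPM in the growing libraries and 3066, 2929.5 and 3086 CPM in the senescent ones (log2 fold change 3.00 ± 0.09, edgeR adjusted p = 1.68e-12).

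FTH1 and FTL, the ferritin chains, fell (-0.38 ± 0.07 and -1.10 ± 0.21). SLC39A14, an importer of zinc and iron, stood at 133, 129 and 132 CPM in the growing libraries and 545, 544 and 538 CPM in the senescent ones (log2 fold change 2.05 ± 0.05, edgeR adjusted p = 3.96e-13). MT2A, a metallothionein, stood at 15.8, 41 and 50.1 CPM in the growing libraries and 244, 306 and 203 CPM in the senescent ones (log2 fold change 2.82 ± 0.46, edgeR adjusted p = 0.000188), and SLC40A1, the iron exporter, fell (-1.81 ± 0.11). In all 7 of 11 genes rose and 3 fell. Lysosomal genes rose in 15 of 22 cases. CTSS, a cathepsin of antigen-presenting cells, stood at 2.54, 2.18 and 1.83 CPM in the growing libraries and 208, 195 and 213 CPM in the senescent ones (log2 fold change 6.54 ± 0.13, edgeR adjusted p = 2.18e-14). CTSK, a collagen-degrading cathepsin, stood at 22.4, 22.4 and 18.6 CPM growing and 233, 224 and 245 CPM senescent (log2 fold change 3.46 ± 0.09, edgeR adjusted p = 7.02e-13). GLB1, whose product gives the beta-galactosidase stain of senescence, rose slightly (0.22 ± 0.05), and CTSD was not called (1.06 ± 0.45, edgeR adjusted p = 0.062) but rose under 5 alternative settings. Chaperones fell in 12 of 23 cases, mostly by small amounts, such as HSPA5 (-0.39 ± 0.07) and HSP90AA1 (-0.60 ± 0.09), and DNAJB9 was the only rise (1.41 ± 0.10).

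The labelled cell type was checked against markers. The fibroblast genes COL1A1, COL1A2, DCN and VIM were present in every library, and the summed level of the 12 markers was 16583 to 21856 CPM in growing and 17027 to 19647 CPM in senescent cells. Of these 12 markers 6 fell and 3 rose, with a median log2 fold change of -0.265. FBLN1 (-1.14 ± 0.20), THY1 (-0.91 ± 0.16) and DCN (-0.35 ± 0.08) were among the falls, and FAP, a fibroblast activation protease, was the largest rise (2.15 ± 0.09). Epithelial markers KRT5, KRT14, SFTPC and NKX2-1 and the leukocyte marker CD3E were at 0 in all 6 libraries. Epithelial markers summed to 59.7 to 82.0 CPM in growing and 49.5 to 55.0 CPM in senescent libraries, with 2 of the 3 tested called lower, KRT18 and KRT8. Most of the sum was KRT18, at 50.4, 64.9 and 68.6 CPM growing and 47.6, 47.5 and 43.6 CPM senescent. KRT8 stood at 7.5, 11.7 and 12.4 CPM growing and 6.12, 6.28 and 4.7 CPM senescent. Endothelial markers summed to 109 to 134 and 163 to 175 CPM, mostly TEK, and 5 of the 6 tested rose. Leukocyte markers summed to 15.5 to 25.9 and 72.1 to 80.3 CPM, mostly CD68, a lysosomal protein and the only one of 3 tested to rise (1.85 ± 0.23).

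Of 16 genes of keratinised epithelium and serpin B, 8 were tested and 6 rose, summing to 21.9 to 27.0 CPM in growing and 145.5 to 156 CPM in senescent cells, while KRT5, KRT14, KRT6A and KRT16 had no count. Of the 8 tested, 4 had no growing count. They could pass the count filter only through senescent libraries, so a fall was not possible for them. SERPINB4, a squamous protease inhibitor, had 0, 0 and 0 CPM growing and 33, 33 and 33.5 CPM senescent, at least 783-fold higher, with uncertain sharing of reads with SERPINB3. SERPINB7 stood at 7.38, 5.67 and 5.07 CPM in the growing libraries and 75.7, 72.9 and 79.2 CPM in the senescent ones (log2 fold change 3.65 ± 0.13, edgeR adjusted p = 1.04e-11). All 5 tested globin genes of the beta cluster rose, from a sum of 0.47 to 0.714 CPM in growing to 35.3 to 38.9 CPM in senescent libraries. Such growing levels were too low to pass the count filter. The 5 globin genes were tested because of senescent libraries, so their rise was largely set by the filter. HBG2, a fetal globin and near copy of HBG1, stood at 0, 0.0411 and 0.141 CPM growing and 22.7, 22.1 and 26.3 CPM senescent (log2 fold change 8.57 ± 0.32, edgeR adjusted p = 2.03e-11), and HBE1, the embryonic globin, at 0.436, 0.37 and 0.282 CPM growing and 2.92, 2.92 and 3.55 CPM senescent (log2 fold change 3.07 ± 0.19, edgeR adjusted p = 4.73e-09). The log2 fold change of HBG2 rests on 4 growing counts and was 7.984 without growing replicate 1 and 9.842 without growing replicate 3. The alpha globins HBA1 and HBA2, the haem enzyme ALAS2 and the erythroid factor GATA1 were at 0 in all 6 libraries.

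The vehicle libraries of the series were a further set of senescent cells and are given as levels only, with no test. In the 3 senescent DMSO libraries IL1B stood at 2772, 2819 and 2803 CPM, CXCL8 at 8119, 7369 and 7321 CPM and IL6 at 509, 522 and 515 CPM. MMP1 stood at 8711, 7867 and 7762 CPM, CDKN1A at 1398, 1611 and 1624 CPM and LMNB1 at 12.2, 10.9 and 10.7 CPM there. Each of these values lay on the same side of all growing values as the senescent controls did. Members added to complete a family or complex aside, the same held for 227 of the 239 named genes called in the comparison. Many named genes were chosen for large changes in this comparison, and in 240 of all 242 its groups did not overlap. The same growing libraries were used again. Such agreement was thus largely set by the choice of genes, and the share over all called genes was not counted. The 12 called named genes not on that side were AXIN2, CDKN2A, COL3A1, FASN, FBLN1, INSIG1, IRF1, KRT8, LAMP2, MAVS, STAT2 and TEK. CDKN2A, which fell in the senescent controls, stood at 15.3, 18.4 and 18 CPM in the DMSO libraries, and TEK, which rose in those controls, at 88.7, 85.8 and 81.2 CPM.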

How the data were processed

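The deposited table held read counts per Ensembl gene for 15 libraries, 57736 genes in all, with no column left unused. Per the submitters' processing notes, RSEM 1.2.3 and DESeq2 were used and the builds hg19 and mm10 are named, with no role given. The counts were whole numbers. The sources used here do not give the aligner, the annotation, the strand setting or how reads that match several genes were counted, so values of near-copies and of overlapping or antisense genes are uncertain. Per the labels, libraries came from total RNA with a KAPA RNA HyperPrep kit.

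Genes were kept by edgeR's filterByExpr, and counts were scaled by TMM and tested with the edgeR quasi-likelihood F test (edgeR 4.0.16, R 4.3.3). Genes with few or no growing counts could pass this filter only through senescent libraries, so their rises were largely set by it. A single model held the 5 groups and 15 libraries, with 10 residual degrees of freedom, and p-values were adjusted by Benjamini-Hochberg over 15994 genes, with a threshold of 0.05. Values written with ± are log2 fold changes, senescent over growing. The figure after ± is the size of the change divided by the square root of the quasi-likelihood F statistic. It can understate the error where growing counts are few, as for IL1B, IL1A, SAA2, THBD and HBG2. No permutation test was used, as the smallest p it allows with 3 libraries a side is 0.1. Folds against a group with no count are lower bounds from a floor of 3 counts over the group, and ratios from 1 to 3 counts carry exact 95% intervals, both for counting error only. Symbols were matched for 52301 identifiers.

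The gene lists and the comparison were chosen with earlier results of these data known. Named genes were a fixed panel, up to 2 of the largest rises and 2 of the largest falls of each list whose mean log2 CPM was 1 or more, the 12 largest rises and falls over all genes whose mean log2 CPM was 3 or more and whose groups did not overlap, and members that complete a family or complex, some of them chosen after their values were seen. Promoters came from RefSeq (GRCh38.p14). Alternatives were DESeq2 1.42.0, limma-voom (limma 3.58.1), other scalings, filters and models, a GC correction, and leaving out each library. The procedure was tested on simulated data. A few genes that entered the tests and list counts are not reported here.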

Additional observations from a re-analysis of the deposited data

How the results depend on the processing

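The number of genes called higher and lower stayed within 1.5 times the main counts under every alternative run but a test against a 2-fold minimum, which called 1249 higher and 719 lower. Under the GC correction 3468 rises and 4629 falls were shared with the main test, and 13 genes were called in the opposite direction. Leaving out each library in turn gave 3926 to 4408 higher and 4266 to 4718 lower, and leaving out both growing replicate 1 and senescent replicate 3, an alternative chosen after seeing the data, gave 3844 and 4129. With the replicate number as a block, 4195 genes were called higher and 4559 lower. Deviations of same-numbered libraries correlated at -0.122, 0.551 and -0.783. Because the deviations of most libraries also followed GC content, these correlations cannot show if same-numbered samples were handled together. Members added to complete a family or complex were not followed gene by gene through the settings. Of the other 242 named genes, 2 reversed under some setting, neither of which passed the main test. The log2 fold change of COL1A1 (0.05188) went to -0.4425 under the GC correction and to -0.1018 without both libraries, and leaving out 1 library gave -0.2195 (without growing replicate 1) to 0.3341 (without growing replicate 3), with -0.07889 without senescent replicate 2. The log2 fold change of FOSL1 (-0.05106) went to 0.02667 with a mean CPM of at least 5, and leaving out 1 library gave -0.1596 (growing replicate 1) to 0.02426 (growing replicate 3), with 0.01617 without senescent replicate 1. The causes were not tested. Depth limits the folds of genes with few growing counts.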
